A study of Homo sapiens with 12 samples.

Results

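The genes described here encode the MHC class I molecule and the machinery that loads it with peptide. They are the heavy chain genes HLA-B, HLA-C, HLA-E and HLA-F, the heavy chain pseudogene HLA-H, the light chain gene B2M, the peptide transporter genes TAP1 and TAP2, and the tapasin gene TAPBP. The 9 genes were chosen by name, so the selection rule itself holds no measured value, although the list was drawn up with earlier results of these data known. All 9 were among the 60645 gene names of the count tables, and all 9 were among the 20377 genes that passed the filter on low counts and were tested.

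The RNA was taken from HEK-293T, a line derived from embryonic human kidney, after knockout of ARID1A (a single knockout line, named 12KO). ARID1A belongs to the SWI/SNF complex, which remodels chromatin, and IDR1b is a stretch within one of its intrinsically disordered regions. EWS-FLI1 is the fusion transcription factor that drives most Ewing sarcomas. The knockout cells overexpressed one of 3 things in the ARID1A position, namely an empty vector (written "no ARID1A"), wild-type ARID1A (WT) or ARID1A lacking IDR1b (ΔIDR1b), and in the second position either a further empty vector or EWS-FLI1. Every group therefore carries the knockout, and WT and ΔIDR1b are overexpressed proteins, not the endogenous one. According to the labels, 2 µg of plasmid carried EWS-FLI1 and the cells grew for 48 h. Each of the 6 groups had 2 libraries of polyA RNA, labelled repeats 1 and 2, and the labels do not say whether the repeats were separate cultures, so p-values measure the spread between these libraries, which may be technical.

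MHC class I molecules are displayed on nearly all nucleated cells and show short peptides from inside the cell to CD8 T cells and natural killer cells. The heavy chain folds with β2-microglobulin in the endoplasmic reticulum, TAP1 and TAP2 together pump peptides made by the proteasome into that compartment, and tapasin bridges the empty molecule to the transporter until a fitting peptide is bound. Most of these genes are induced by interferon, and many of their promoters carry an interferon response element. Some also carry the SXY module, which the transactivator NLRC5 uses together with the RFX and NF-Y factors.

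All members but one lie in the MHC region of chromosome 6, and B2M lies on chromosome 15 (44711358 to 44718851, plus strand, GRCh38 as in the count tables). HLA-F spans 29722775 to 29738528, HLA-H spans 29887752 to 29890482 and HLA-E spans 30489509 to 30494194, each on the plus strand. HLA-C spans 31268749 to 31272130 and HLA-B spans 31353872 to 31367067, both on the minus strand. TAP2 (32821833 to 32838739), TAP1 (32845209 to 32853816) and TAPBP (33299694 to 33314284) are also on the minus strand. Exons of other gene models cover 47.3% of the exonic bases of HLA-B, 31.8% of HLA-H, 28.0% of HLA-F, 21.0% of TAPBP, 19.5% of TAP2 and 14.2% of TAP1, and none of HLA-C, HLA-E and B2M. Fragments that overlapped several genes or mapped to several places were not counted, and no strand option was set, so the levels of the HLA genes, which resemble one another, and of the overlapped genes are uncertain. Among the overlapping models, HLA-F-AS1 held 56 to 135 counts per library and no other held more than 20.

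The promoters of 7 of the 9 members were found in the RefSeq promoter table (GRCh38.p14), which gives 250 bases before and 50 after each start site. The sequences shown are the 200 bases before the start of HLA-C and HLA-B, whose levels moved together over the libraries, of B2M, which was lower in ΔIDR1b, and of TAP1, which was called in no comparison. Each is written 5′ to 3′ on the strand of its gene, and the capitals mark the motif matches described after them.
HLA-C, chr6:31272093-31272292, minus strand: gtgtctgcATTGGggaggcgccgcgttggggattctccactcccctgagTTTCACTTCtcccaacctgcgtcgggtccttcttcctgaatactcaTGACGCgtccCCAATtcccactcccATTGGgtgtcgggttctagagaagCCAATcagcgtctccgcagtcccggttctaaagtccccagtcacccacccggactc
HLA-B, chr6:31357180-31357379, minus strand: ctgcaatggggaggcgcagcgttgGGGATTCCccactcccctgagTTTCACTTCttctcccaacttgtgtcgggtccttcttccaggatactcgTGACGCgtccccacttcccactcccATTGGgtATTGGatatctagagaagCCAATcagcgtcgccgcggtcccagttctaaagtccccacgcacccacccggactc
B2M, chr15:44711317-44711516, plus strand: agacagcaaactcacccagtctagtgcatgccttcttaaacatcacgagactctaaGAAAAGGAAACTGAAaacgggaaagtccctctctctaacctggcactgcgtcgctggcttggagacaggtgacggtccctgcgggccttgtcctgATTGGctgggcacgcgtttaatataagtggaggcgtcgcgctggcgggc
TAP1, chr6:32853705-32853904, minus strand: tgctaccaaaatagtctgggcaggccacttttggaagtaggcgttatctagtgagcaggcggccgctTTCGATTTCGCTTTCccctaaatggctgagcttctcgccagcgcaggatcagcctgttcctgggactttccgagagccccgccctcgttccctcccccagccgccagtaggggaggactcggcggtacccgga

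All motifs were searched on both strands, so a match may be printed as its reverse complement. The interferon response element core GAAANNGAA was found in the promoters of 5 of the 7 members (HLA-F, B2M, TAP1, TAP2 and TAPBP) and in 8.11% of all 35116 promoters of the table. In B2M 2 overlapping copies start 144 and 138 bases before the start site, at positions -144 and -138, and in TAP1 2 overlapping copies lie at -133 and -127. The same core in the other order, GAANNGAAA, was found in HLA-B (-155), HLA-C (-151) and TAP2 (-63, overlapping the first core) and in 7.66% of all promoters. The CCAAT letters of the Y box, bound by NF-Y, were found in 5 of the 7 (34.6% of all promoters), with 3 copies in HLA-B and 4 in HLA-C. The letters TGACGC, which occupy the X2 position of the HLA class I promoters, were found in HLA-B (-106), HLA-C (-105) and TAP2 (-35), against 9.14% of all promoters. The NF-κB core GGGATTCC was found in HLA-B alone of the members (-176, 1.12% of all promoters). The STAT palindrome TTCNNNGAA matched once, at the second start of TAP1 (7.66% of all promoters). The CRE core TGACGT (7.98%) and the tandem ETS core GGAAGGAA (3.67%), letters of the kind that EWS-FLI1 binds, matched none of the 7. GAANNGAAA and TGACGC were added after the sequences had been seen, and a match or its absence in this window says nothing of whether a factor was bound.

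The libraries held 11702251 to 14445379 counts, and levels are given as CPM, the counts scaled to a common library size after TMM adjustment. ARID1A stood at 147 to 165 CPM in the 4 libraries without an ARID1A plasmid, at 1843 to 2291 CPM in the 4 WT libraries and at 2608 to 2878 CPM in the 4 ΔIDR1b libraries. With the empty vector it was called higher in ΔIDR1b than in WT (log2 fold change 0.44, adjusted p = 6.91e-04, edgeR quasi-likelihood test). The RNA of the 2 forms was thus not at an equal level, and the part of this in the differences between ΔIDR1b and WT was not tested. FLI1 was at most 0.146 CPM without EWS-FLI1, and with it stood at 1688 and 1830 CPM in no ARID1A, 1888 and 1906 CPM in ΔIDR1b, and 3462 and 3675 CPM in WT, so the fusion was not at an equal level in the 3 states. EWSR1, the other partner of the fusion, stood at 386 to 559 CPM without the plasmid and 1976 to 3728 CPM with it. A chi-square per degree of freedom between paired repeats lay between 3.13 and 13.6, where 1 would be counting noise, and was highest for WT with EWS-FLI1. Of 8 kidney, neural and epithelial genes described for this line, PAX8 and NEFM stayed under 1 CPM in every library, and the others ranged from PAX2 (7.86 to 11.5 CPM) to VIM (423 to 686 CPM). Their summed level moved with the ARID1A state, at 1046 to 1088 CPM in no ARID1A, 1126 to 1214 CPM in WT and 928 to 985 CPM in ΔIDR1b with the empty vector, and at 965 to 1029, 1144 to 1155 and 859.9 to 969 CPM with EWS-FLI1. VIM and NEFL were called lower in ΔIDR1b than in both other states with either vector. The log2 fold changes ran from -0.28 to -0.41 for VIM and from -0.32 to -0.69 for NEFL. Of the calls with the empty vector, those against no ARID1A were kept under 22 (VIM) and 19 (NEFL) of 25 alternatives. Those against WT were kept under 20 and 24. KRT8 went the other way against no ARID1A where EWS-FLI1 was present (0.29, called higher in ΔIDR1b, kept under 17 of 25). With the empty vector it was lower in ΔIDR1b than in WT (-0.36). KRT8 was also called higher in WT than in no ARID1A with either vector (0.44 and 0.55). The part of these differences in the lower levels of HLA-E and B2M in ΔIDR1b was not tested. Of 19 markers of blood, endothelial, fibroblast and liver cells, MS4A1 and S100A8 were at 0 in every library and 12 stayed under 1 CPM in every library. PTPRC, which marks white blood cells, had 3 counts over all libraries. Their summed level was 85.0 to 87.4 CPM in no ARID1A, 86.8 to 90.4 CPM in WT and 112 to 113 CPM in ΔIDR1b with the empty vector, and 84.8 to 90.04, 80.8 to 100.1 and 105 to 113 CPM with EWS-FLI1. Most of it was COL1A1 (73.0 to 105 CPM). With the empty vector COL1A1 was higher in ΔIDR1b than in no ARID1A (log2 fold change 0.43, adjusted p = 0.00375, edgeR quasi-likelihood test) and than in WT (0.34, adjusted p = 0.0276). The first call was kept under 24 of 25 alternatives, being lost without repeat 1 of no ARID1A, and the second under 18. With EWS-FLI1, 0 of the 8 tested markers were called between ΔIDR1b and WT. The part of these differences in the results below was not tested.

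Per kilobase of exon, HLA-C was the most abundant member (198 CPM per kb over the 12 libraries), followed by B2M (102), HLA-B (63.2) and HLA-E (50.5). The loading genes were far lower, with TAP1 at 10.3, TAPBP at 7.0 and TAP2 at 2.99 CPM per kb. HLA-F stood at 6.08 and the pseudogene HLA-H at 7.08 CPM per kb. The divisor was all exonic bases of the gene model, from 1096 for HLA-H to 10357 for TAP2, with 2507 for HLA-C and 3121 for B2M. It may differ from the length of the transcripts present, and it includes bases shared with other models. The gaps between genes per kb therefore depend on the gene models. Undivided, the median levels were 485 CPM for HLA-C, 323 for B2M, 290 for HLA-B and 148 for HLA-E, in the same order. The highest library was 1.28 times the lowest for HLA-B, 1.35 times for TAP1, 1.54 times for B2M, 1.61 times for HLA-E and 9.85 times for HLA-H. Differences between the repeats of a group held 5.75% of the variance over the libraries for HLA-E and 16.7% for B2M, against 65.2% for HLA-B and 60.0% for TAP1.

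**Figure D1:**
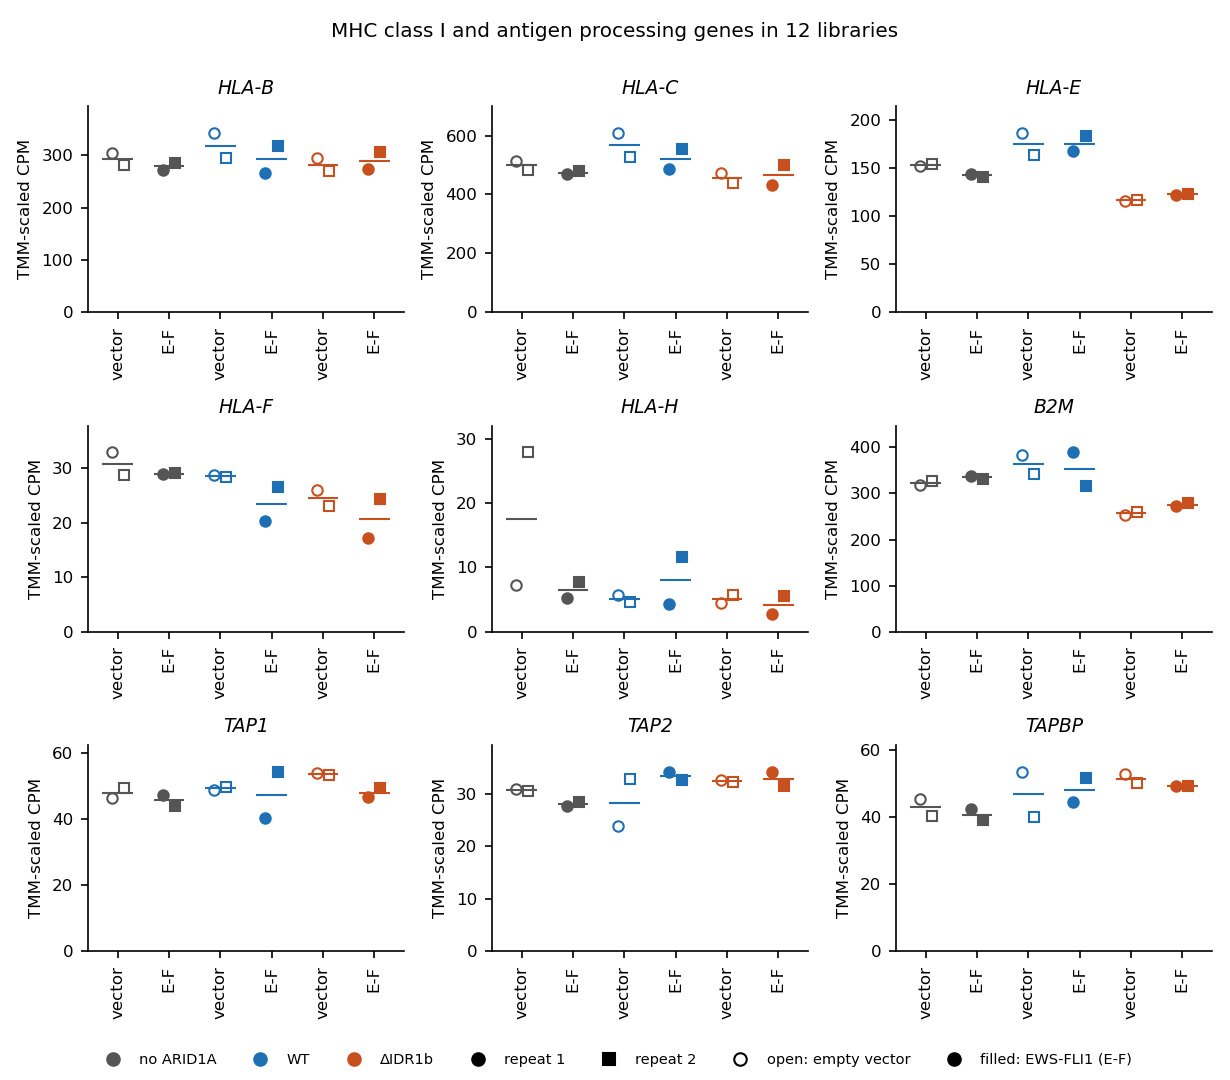
Each panel gives 1 member in TMM-scaled CPM (axes from 0) in the 6 groups, with a circle for repeat 1, a square for repeat 2 and a line at the group mean. HLA-E and B2M are lowest in the 4 ΔIDR1b libraries, and HLA-H stands at 27.9 CPM in a single library of no ARID1A with the empty vector.

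The first question was whether the ARID1A state set the level of the class I genes, and the clearest difference was in HLA-E, the non-classical heavy chain that presents leader peptides of other heavy chains to NKG2A receptors. With the empty vector, HLA-E stood at 153 and 154 CPM in no ARID1A, 187 and 163 CPM in WT, and 116 and 117 CPM in ΔIDR1b. With EWS-FLI1 it stood at 144 and 141, 168 and 183, and 123 and 123 CPM in the same order. Every ΔIDR1b library lay below every other library, and every WT library lay above every library of no ARID1A. ΔIDR1b was 0.666 times WT with the empty vector (a log2 fold change of -0.59 with an SE of 0.10, and an adjusted p of 5.3e-05) and 0.699 times WT with EWS-FLI1 (-0.52, SE 0.10, adjusted p = 4.05e-04). Here and below the test is edgeR's quasi-likelihood F-test, with p-values adjusted over all 20377 genes. Against no ARID1A it was 0.760 times with the empty vector (-0.40, SE 0.10, adjusted p = 0.00254). With EWS-FLI1 the corresponding log2 fold change of -0.22 (95% interval -0.42 to -0.01, adjusted p = 0.0953) did not pass the threshold of 0.05. It did under 8 of 25 alternatives, among them those without repeat 1, repeat 2 or both repeats of WT with EWS-FLI1. The 3 calls held under every alternative fit, but with a further limit of 0.5 on the size of the log2 fold change the one against no ARID1A was lost.

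With EWS-FLI1, the HLA-E level of WT was 1.23 times the no ARID1A level (0.30 on the log2 scale, SE 0.10, adjusted p = 0.0329) and 1.14 times with the empty vector, where the difference was not called (0.19, 95% interval -0.01 to 0.39, adjusted p = 0.229). The former call was lost under 8 of 24 alternatives. Among single libraries it was lost without repeat 1 or 2 of no ARID1A with EWS-FLI1 (adjusted p = 0.156 and 0.191), repeat 2 of WT with EWS-FLI1 (0.113) and either repeat of no ARID1A with the empty vector (0.0516 and 0.0522). These data are from bulk RNA, in which fewer cells that express a gene and less RNA of it per cell cannot be told apart.

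B2M, the light chain shared by all class I molecules, was also lowest in ΔIDR1b. With the empty vector it stood at 318 and 327 CPM in no ARID1A, 384 and 342 CPM in WT, and 253 and 260 CPM in ΔIDR1b. With EWS-FLI1 it stood at 338 and 332, 389 and 316, and 272 and 279 CPM. No ΔIDR1b library overlapped with a library of another state, whereas with EWS-FLI1 the WT pair spread on both sides of the no ARID1A pair. ΔIDR1b was 0.707 times WT with the empty vector (-0.50 on the log2 scale, SE 0.10, adjusted p = 3.62e-04), a call that held under every alternative fit and lay at the edge of the log2 limit of 0.5, and 0.782 times WT with EWS-FLI1 (-0.35, SE 0.10, adjusted p = 0.0116). Against no ARID1A it was 0.795 times with the empty vector (-0.33, SE 0.10, adjusted p = 0.0102) and 0.823 times with EWS-FLI1 (-0.28, SE 0.10, adjusted p = 0.0268).

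These last 3 B2M calls depended on single libraries. The call against WT with EWS-FLI1 was lost without repeat 1 of WT (log2 fold change -0.20, adjusted p = 0.174) or repeat 1 of ΔIDR1b (adjusted p = 0.0800). The call against no ARID1A with the empty vector was lost without repeat 2 of no ARID1A (adjusted p = 0.0815) or repeat 1 or 2 of ΔIDR1b (0.0832 and 0.0525). The call against no ARID1A with EWS-FLI1 was lost without any 1 of its 4 libraries, with adjusted p = 0.134 and 0.102 without repeats 1 and 2 of no ARID1A and 0.125 and 0.0687 without those of ΔIDR1b. All 3 were also lost when libraries were scaled by their total counts only, with log2 fold changes of -0.21, -0.21 and -0.18. B2M in WT did not differ detectably from no ARID1A, with log2 fold changes of 0.17 (95% interval -0.03 to 0.37, adjusted p = 0.297) with the empty vector and 0.07 (-0.13 to 0.28, adjusted p = 0.664) with EWS-FLI1.

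The classical heavy chains HLA-B and HLA-C, which present peptides to CD8 T cells and engage killer-cell receptors, differed less between the states. HLA-C stood at 514 and 483 CPM in no ARID1A, 609 and 526 CPM in WT, and 473 and 438 CPM in ΔIDR1b with the empty vector, and at 470 and 479, 486 and 556, and 431 and 500 CPM with EWS-FLI1. The states did not overlap with the empty vector, while with EWS-FLI1 the ΔIDR1b pair spanned the no ARID1A pair. HLA-C was 0.803 times WT in ΔIDR1b with the empty vector (-0.32 on the log2 scale, SE 0.10, adjusted p = 0.0184). This call was lost without repeat 1 of WT (-0.21, adjusted p = 0.257) or repeat 2 of ΔIDR1b (-0.26, adjusted p = 0.175), and with upper-quartile (adjusted p = 0.0634) or total-count scaling (-0.15, adjusted p = 0.269). With EWS-FLI1 the same comparison gave -0.16 (95% interval -0.37 to 0.04, adjusted p = 0.266).

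HLA-B stood at 305 and 281 CPM in no ARID1A, 342 and 294 CPM in WT, and 294 and 270 CPM in ΔIDR1b with the empty vector. With EWS-FLI1 it stood at 272 and 285, 267 and 318, and 273 and 306 CPM. The ranges of the states overlapped in every comparison but ΔIDR1b against WT with the empty vector. There the highest ΔIDR1b library (294.326 CPM) all but met the lowest WT library (294.331 CPM). The log2 fold change was -0.18 (95% interval -0.39 to 0.04, adjusted p = 0.229). HLA-B was called in 0 of the 6 comparisons between states, and its intervals reached at most 0.39 on the log2 scale in either direction. ΔIDR1b against WT with the empty vector was called under 3 alternatives, each of which removed trends with gene length or with length and GC content (lowest adjusted p = 0.00101).

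HLA-F, a heavy chain that can reach the surface without peptide and binds killer-cell receptors, stood at 32.9 and 28.8 CPM in no ARID1A, 28.8 and 28.5 CPM in WT, and 26.1 and 23.1 CPM in ΔIDR1b with the empty vector. With EWS-FLI1 it stood at 28.9 and 29.2, 20.3 and 26.6, and 17.1 and 24.3 CPM. With EWS-FLI1 both ΔIDR1b libraries and both WT libraries lay below those of no ARID1A. The difference was called for ΔIDR1b (0.714 times, log2 fold change -0.49, SE 0.17, adjusted p = 0.0203) and not for WT (-0.31, 95% interval -0.64 to 0.03, adjusted p = 0.202). The latter was called without repeat 2 of WT. ΔIDR1b and WT themselves differed by -0.18 (95% interval -0.52 to 0.16). The call was lost without repeat 1 of ΔIDR1b (-0.25, adjusted p = 0.370), without repeat 1 or 2 of no ARID1A (adjusted p = 0.0791 and 0.0938) and with total-count scaling (0.0642).

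HLA-H, a pseudogene that resembles the classical heavy chains, gave the largest fold changes of the 9 genes, and these rested on 1 library. It held 7.29 and 27.9 CPM in no ARID1A, 5.65 and 4.63 CPM in WT, and 4.53 and 5.65 CPM in ΔIDR1b with the empty vector. With EWS-FLI1 it held 5.29 and 7.78, 4.29 and 11.7, and 2.83 and 5.56 CPM. The counts ran from 40 to 373 per library, the highest being repeat 2 of no ARID1A with the empty vector. Against no ARID1A with the empty vector, the log2 fold change was -1.77 in WT (SE 0.39, adjusted p = 0.00274) and -1.79 in ΔIDR1b (SE 0.39, adjusted p = 5.88e-04). Without that library they became -0.50 (adjusted p = 0.558) and -0.52 (adjusted p = 0.387). The call for WT was also lost without repeat 2 of WT (-1.62, adjusted p = 0.0501) and with DESeq2 (adjusted p = 0.0889). With EWS-FLI1 ΔIDR1b against WT (-0.92, 95% interval -1.77 to -0.08, adjusted p = 0.12) was not called, but was under 7 of 24 alternatives, including those without repeat 1 of WT with EWS-FLI1 or without either repeat of no ARID1A with the empty vector.

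TAP1 and TAP2, the 2 chains of the peptide transporter, were called in none of the 6 comparisons between states. TAP1 stood at 46.4 and 49.4 CPM in no ARID1A, 48.9 and 49.6 CPM in WT, and 54.0 and 53.3 CPM in ΔIDR1b with the empty vector, and at 47.3 and 43.9, 40.3 and 54.3, and 46.6 and 49.3 CPM with EWS-FLI1. Its log2 fold changes lay between 0.02 and 0.16, and the highest of them had an interval of -0.10 to 0.43 (ΔIDR1b against no ARID1A, empty vector, adjusted p = 0.355). TAP2 ranged from 23.9 to 34.2 CPM, the lowest library being repeat 1 of WT with the empty vector, whose partner stood at 32.7 CPM. Its log2 fold changes between states ran from -0.12 to 0.25.

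TAPBP, which encodes tapasin, stood at 45.4 and 40.5 CPM in no ARID1A, 53.5 and 40.1 CPM in WT, and 52.8 and 50.1 CPM in ΔIDR1b with the empty vector. With EWS-FLI1 it stood at 42.3 and 39.0, 44.5 and 51.5, and 49.3 and 49.1 CPM. The ΔIDR1b libraries lay above those of no ARID1A with either vector, by a log2 fold change of 0.26 (95% interval -0.01 to 0.53, adjusted p = 0.136) and 0.28 (0.00 to 0.55, adjusted p = 0.111). Neither passed the threshold, so a rise of TAPBP in ΔIDR1b was not detectable at this number of libraries. Scaling by total counts, which raises the median of all genes in ΔIDR1b, made both calls, and the first was also made when only the compared libraries were fitted.

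Counted over the 9 members, none was called higher and 1 lower in WT against no ARID1A with the empty vector (HLA-H), where 6.50% of all tested genes were called higher and 5.19% lower. In ΔIDR1b against no ARID1A with the empty vector, none was higher and 3 were lower (HLA-E, HLA-H and B2M), against 16.4% of all genes higher and 16.8% lower. In ΔIDR1b against WT with the empty vector, none was higher and 3 were lower (HLA-C, HLA-E and B2M), against 11.1% and 13.4%. With EWS-FLI1, 1 was higher and none lower in WT against no ARID1A (HLA-E, against 9.72% and 8.36% of all genes). None was higher and 2 were lower in ΔIDR1b against no ARID1A (HLA-F and B2M, against 18.1% and 17.9%), and none was higher and 2 were lower in ΔIDR1b against WT (HLA-E and B2M, against 8.48% and 10.1%). The median log2 fold change of the 9 in these 6 comparisons, in the same order, was 0.12, -0.13, -0.18, 0.14, -0.03 and -0.16, beside medians of all tested genes between -0.02 and 0.02. With 9 genes, 1 gene is a large share, and the comparisons share groups, so the counts describe the list and do not set it apart from other genes.

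**Figure D2:**
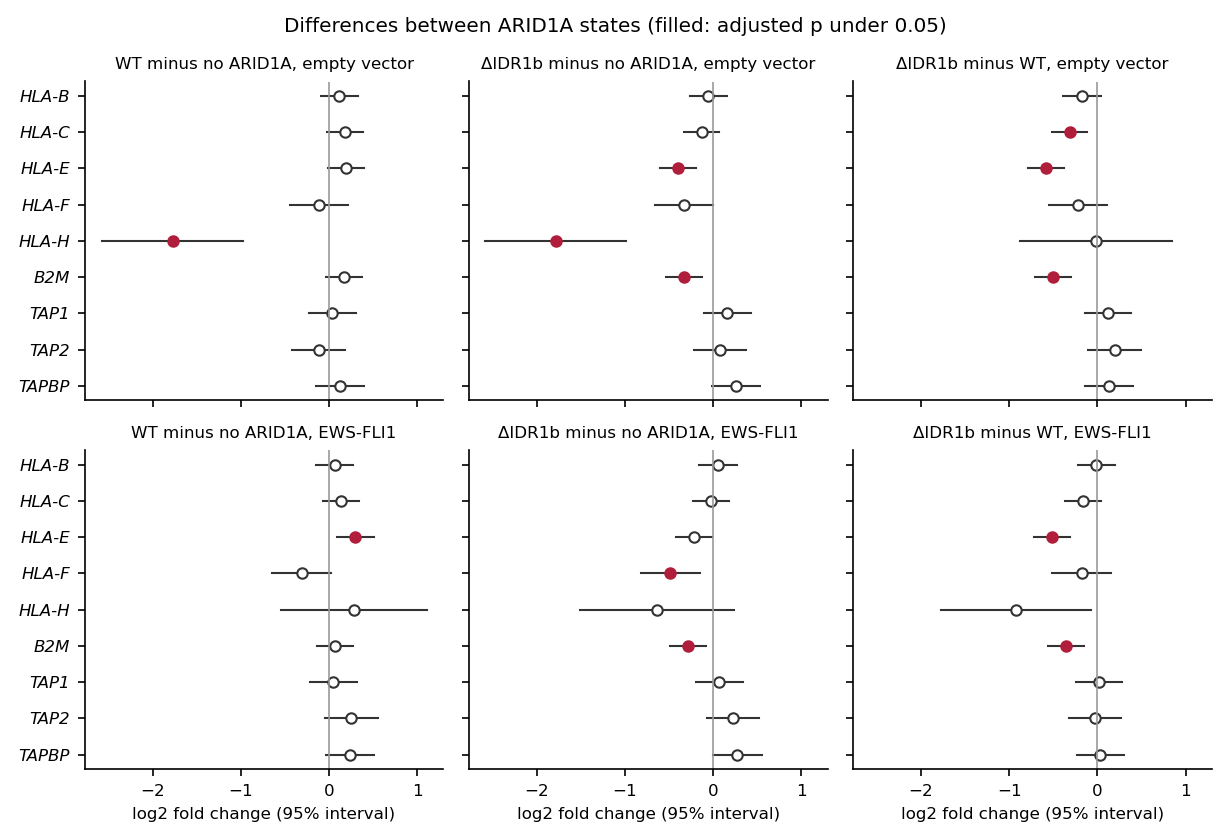
Points are log2 fold changes between ARID1A states with the 95% interval of the model, with the empty vector (top) and with EWS-FLI1 (bottom), and filled points passed an adjusted p of 0.05. HLA-E and B2M lie left of 0 in all 4 comparisons of ΔIDR1b, and HLA-B, TAP1, TAP2 and TAPBP are open throughout.

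The series was designed to ask how EWS-FLI1 acts on transcription in each ARID1A state, and no member was called for EWS-FLI1 against the empty vector in any state. The share of all tested genes called was 0.0442% in no ARID1A, 0.221% in WT, 0.172% in ΔIDR1b and 0.466% in the average over the 3 states. By the edgeR test, 0 of the 9 members were among them each time. At an unadjusted p under 0.05 there was 1 member in no ARID1A (HLA-H), 0 in WT, 0 in ΔIDR1b and 1 in the average (HLA-F), and DESeq2 called 0 in each. HLA-B, HLA-C, HLA-E and B2M changed by between -0.12 and 0.10 on the log2 scale in the 3 states, and no interval of these 4 genes reached beyond -0.34 or 0.31. For TAP1 the change was -0.07 without ARID1A, -0.06 in WT and -0.16 in ΔIDR1b, and for TAPBP it was -0.08, 0.04 and -0.06. TAP2 changed by -0.13, 0.24 and 0.02, the value in WT having an interval of -0.06 to 0.54 and resting on the low repeat 1 of the empty vector pair.

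HLA-F was lower with EWS-FLI1 in all 3 states by the group means, by a log2 fold change of -0.09 without ARID1A, -0.29 in WT and -0.25 in ΔIDR1b. The average of -0.21 (95% interval -0.40 to -0.01, unadjusted p = 0.0357, adjusted p = 0.569) was not called. HLA-H fell by 1.43 on the log2 scale in no ARID1A, with an unadjusted p of 8.5e-04 and an adjusted p of 0.727, again with its highest library on the empty vector side. That library, repeat 2, stood at 27.9 CPM beside 7.29 CPM for repeat 1. The fall was called without repeat 1 of that pair or without either repeat of WT with EWS-FLI1, and the interaction of WT with no ARID1A without the first or repeat 1 of the second.

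**Figure D3:**
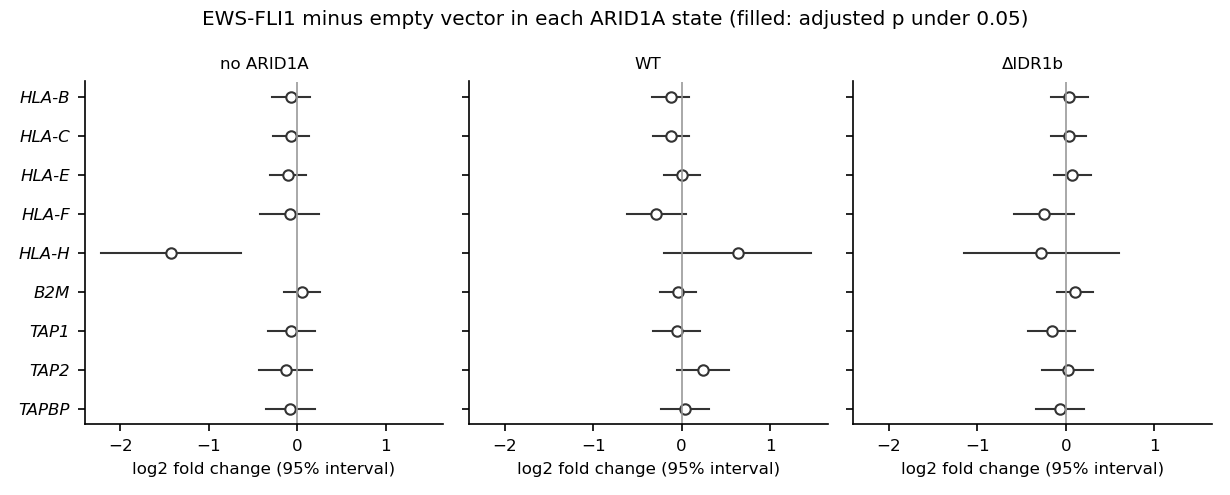
Points are log2 fold changes of EWS-FLI1 against the empty vector in each ARID1A state with the 95% interval of the model, and open points did not pass an adjusted p of 0.05. All points are open, the farthest from 0 among those of HLA-B, HLA-C, HLA-E and B2M is -0.124 (HLA-B in WT), and HLA-H has the widest intervals.

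The effect of EWS-FLI1 on the members was not called as differing between the states. The interaction of WT with no ARID1A was called for 0.0245% of all tested genes, that of ΔIDR1b with no ARID1A for 0.0196% and that of ΔIDR1b with WT for 0.0%, where 741 genes had an unadjusted p under 0.05 and DESeq2 also called 0. No member was called in any of the 3 by edgeR or DESeq2. At an unadjusted p under 0.05 there was 1 member in the first (HLA-H, log2 difference 2.06, 95% interval 0.91 to 3.21, unadjusted p = 9.05e-04, adjusted p = 1) and 0 in the other 2. For the other 8 genes the differences between states lay between -0.22 and 0.37, with SE between 0.14 and 0.23, so differences of the size of the EWS-FLI1 effects themselves were not detectable.

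Over the 12 libraries, which share groups and scaling, the members fell into more than one pattern. Pearson's r of log2 CPM was 0.886 between HLA-B and HLA-C, 0.866 between HLA-E and B2M and 0.803 between HLA-C and HLA-E. B2M had an r of -0.589 with TAP1, -0.461 with TAP2 and -0.407 with TAPBP. Of the 36 pairs, 7 had an r above 0.5 and 12 an r below 0, and the median was 0.194. Among 12281 tested genes with a mean of at least 5 CPM, the 3 most like B2M over the 12 libraries were OAT (r = 0.982), TOMM20 (0.976) and NPM1 (0.973). Those most like HLA-B were TSPO, REEP2 and GALK1 (0.920, 0.914 and 0.911), and those most like TAP1 were WIPI1, SOWAHA and NUBP1 (0.918, 0.914 and 0.901). None of these 9 genes belongs to the lists described here, and with 12 libraries searched against this many genes such values describe the libraries only.

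Heavy chain RNA (HLA-B, HLA-C, HLA-E and HLA-F summed) stood at 948 to 1005 CPM in no ARID1A, 1012 to 1166 CPM in WT and 848 to 910 CPM in ΔIDR1b with the empty vector. The ratio of this sum to B2M was 3.16 and 2.90, 3.04 and 2.96, and 3.59 and 3.26 in the same order, so it was highest in both ΔIDR1b libraries. With EWS-FLI1 the ratio was 2.71 and 2.81 in no ARID1A, 2.42 and 3.43 in WT, and 3.10 and 3.42 in ΔIDR1b, where the WT pair covered the whole range. The ratio was not tested.

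The partners of the members in peptide loading were taken from a list of 12 chaperones, folding sensors and peptide trimming enzymes, all of which were tested. Of these, 3 chaperones were lower in ΔIDR1b and 1 folding sensor was higher with the empty vector. CALR (calreticulin) fell from 801 and 837 CPM in no ARID1A to 586 and 554 CPM with the empty vector (log2 fold change -0.52, adjusted p = 3.77e-05). CANX (calnexin) fell from 984 and 1019 to 791 and 762 CPM (-0.37, adjusted p = 0.00185). PDIA3 (ERp57, the disulfide isomerase bound to tapasin) fell from 298 and 323 to 205 and 205 CPM (-0.60, adjusted p = 2.4e-05). UGGT1, which re-glucosylates unfinished glycoproteins so that they return to calreticulin, rose from 109 and 115 to 153 and 161 CPM (0.49, adjusted p = 3.21e-04). These 4 calls held under every alternative fit, and with the log2 limit of 0.5 those of CANX and UGGT1 were lost.

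Of the 12 loading genes, 1 was higher and 3 lower in ΔIDR1b against no ARID1A with the empty vector, and 2 were higher and 3 lower with EWS-FLI1, the added rise being that of ERAP2, a peptide trimming enzyme (0.82, adjusted p = 0.0174). Of all tested genes, 16.4% were higher and 16.8% lower in the first comparison, and 18.1% were higher and 17.9% lower in the second, so the list's counts were near the share of all genes. The ERAP2 call was lost under 3 of 25 alternatives, each of which left out a library of the comparison (no ARID1A repeat 1, or either ΔIDR1b repeat, with EWS-FLI1), with an adjusted p of up to 0.135. In WT against no ARID1A none of the 12 was called with the empty vector by edgeR, with 0 at an unadjusted p under 0.05 and 0 called by DESeq2, and 1 was called with EWS-FLI1 (UGGT1, 0.32, adjusted p = 0.0251, lost under 6 of 24 alternatives). The median of the 12 was 0.03 and 0.05 in ΔIDR1b and 0.09 and 0.05 in WT, beside medians of all tested genes between -0.02 and 0.02.

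The proteasome supplies the peptides, and interferon exchanges its catalytic subunits for those of the immunoproteasome. The immunoproteasome subunits were scarce in this line. PSMB8 did not pass 0.439 CPM in any library and was not tested, PSMB9 stood at 0.598 to 3.50 CPM and PSMB10 at 0.521 to 2.02 CPM. Of the 6 tested genes of the list, 1 was higher and 2 were lower in ΔIDR1b than in no ARID1A with either vector, where 16.4% to 18.1% of all tested genes were called in each direction. PSME2, a subunit of the interferon-inducible 11S activator, fell with the empty vector (-0.59, adjusted p = 8.41e-04). POMP, the assembly chaperone of the proteasome core, fell from 111 and 98.3 to 66.9 and 70.8 CPM (-0.60, adjusted p = 2.16e-04). PSME3, the nuclear activator subunit, rose from 90.5 and 92.6 to 145 and 145 CPM (0.66, adjusted p = 7.4e-06). In WT against no ARID1A, PSME3 alone was called (0.42, adjusted p = 0.00703 with the empty vector, and 0.63, adjusted p = 5.89e-05 with EWS-FLI1). The former was lost without repeat 1 or 2 of no ARID1A or repeat 1 of WT, with an adjusted p of up to 0.167. The constitutive subunits PSMB5, PSMB6 and PSMB7 were all lower in ΔIDR1b than in WT with the empty vector (-0.37, -0.33 and -0.36, adjusted p = 0.0231, 0.0311 and 0.0102). Of all tested genes, 13.4% were called lower there. All 3 calls were lost without repeat 1 of WT or repeat 2 of ΔIDR1b and with total-count scaling. Those of PSMB6 and PSMB7 were also lost without repeat 1 of ΔIDR1b. The 3 genes were not called in ΔIDR1b against no ARID1A with either vector, or against WT with EWS-FLI1. PSMB5 and PSMB6 were called higher in WT than in no ARID1A with the empty vector (0.46 and 0.35, adjusted p = 0.0114 and 0.0385). Of all tested genes, 6.50% were called higher in that comparison. These calls were kept under 23 (PSMB5) and 14 (PSMB6) of 25 alternatives.

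Among the 15 factors known to act at class I promoters, 2 were higher and 2 lower in ΔIDR1b against no ARID1A with the empty vector, and 2 higher and none lower in WT. Of all tested genes 16.4% were higher and 16.8% lower in the former and 6.50% and 5.19% in the latter, so the counts in ΔIDR1b were no larger a share than that of all genes. RFX5, the DNA-binding subunit of the RFX complex, rose from 64.8 and 69.1 CPM in no ARID1A to 90.5 and 94.5 CPM in ΔIDR1b (0.47, adjusted p = 0.00103) and to 94.3 and 83.2 CPM in WT (0.41, adjusted p = 0.0118). The latter was lost without repeat 1 or 2 of no ARID1A or repeat 1 of WT, with an adjusted p of up to 0.196. NFYA, a subunit of the CCAAT-binding NF-Y, stood at 92.4 and 91.7 CPM in WT and 52.9 and 64.3 CPM in ΔIDR1b with the empty vector (-0.65, adjusted p = 1.3e-04). With EWS-FLI1 it was also lower in ΔIDR1b (-0.71, adjusted p = 6.58e-05). Against no ARID1A with the empty vector, NFYA was called higher in WT (0.38, adjusted p = 0.0318) and was not called in ΔIDR1b. The call in WT was kept under 18 of 25 alternatives. NFYB, its partner subunit, fell in ΔIDR1b against no ARID1A (-0.75, adjusted p = 3.56e-04).

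NLRC5, the class I transactivator, was low and differed with EWS-FLI1 only between some states. With EWS-FLI1 it stood at 8.52 and 9.68 CPM in no ARID1A, 3.99 and 4.78 CPM in WT, and 10.7 and 7.79 CPM in ΔIDR1b. WT was lower than no ARID1A (-1.05, adjusted p = 0.00716) and ΔIDR1b higher than WT (1.07, adjusted p = 0.00588). The first call was lost without repeat 2 of no ARID1A (adjusted p = 0.0732) and the second without repeat 1 of ΔIDR1b (adjusted p = 0.114). In the same 6 libraries HLA-B ranged from 267 to 318 CPM and HLA-C from 431 to 556 CPM, and neither was called between the states. HLA-E was called higher in WT than in no ARID1A (0.30), and HLA-E and B2M lower in ΔIDR1b than in WT (-0.52 and -0.35). The remaining members were called in neither comparison, and a relation to NLRC5 was not tested. With the empty vector the log2 fold changes of NLRC5 between the same states were -0.13 and 0.23, neither of them called.

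Of the genes that carry the interferon signal, IRF9, which gives the type I interferon-activated complex its DNA binding, stood at 7.14 and 10.4 CPM in no ARID1A and 4.31 and 3.50 CPM in ΔIDR1b with the empty vector. It fell in ΔIDR1b by 1.16 on the log2 scale (adjusted p = 9.74e-04), a call lost without repeat 2 of no ARID1A (adjusted p = 0.0511).

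The interferon-induced genes, 34 of which were tested, were called higher more often than lower with either form of ARID1A. With the empty vector 10 were higher and none lower in WT than in no ARID1A, with a median log2 fold change of 0.44, where 6.50% of all tested genes were higher and 5.19% lower. In ΔIDR1b 17 were higher and 2 lower, with a median of 0.58, where 16.4% of all tested genes were higher and 16.8% lower. With EWS-FLI1 the counts were 9 higher and 1 lower in WT (median 0.41) and 16 higher and 2 lower in ΔIDR1b (median 0.54), beside 9.72% of all tested genes higher and 8.36% lower in WT and 18.1% and 17.9% in ΔIDR1b. The medians of all tested genes lay between -0.02 and 0.02 in these 4 comparisons, and those of the 9 class I members were 0.12, -0.13, 0.14 and -0.03. Over the alternatives the number higher in ΔIDR1b with the empty vector ran from 8, without repeat 2 of ΔIDR1b, to 23, with total-count scaling, and was 11 without repeat 2 of no ARID1A. With EWS-FLI1 it ran from 10, without either repeat of no ARID1A, to 19, also with total-count scaling. In WT it ran from 5 to 13 with the empty vector, the 5 arising without repeat 2 of no ARID1A or repeat 1 of WT and a count of 6 without repeat 1 of no ARID1A, and from 8 to 15 with EWS-FLI1.

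IFIT2, which binds viral RNA and slows translation, stood at 36.9 and 35 CPM in no ARID1A, 86.4 and 79.3 CPM in WT, and 198 and 224 CPM in ΔIDR1b with the empty vector. Its log2 fold change was 1.20 in WT (adjusted p = 3.51e-09) and 2.56 in ΔIDR1b (adjusted p = 3.07e-18), and ΔIDR1b was also above WT (1.35, adjusted p = 4.21e-11). IFIT3, its partner, rose by 0.73 (adjusted p = 2.88e-05) and 1.06 (adjusted p = 4.3e-09). OASL, an oligoadenylate synthetase-like protein, rose by 1.02 (adjusted p = 7.47e-07) and 0.93 (adjusted p = 5.07e-07). IFI27 rose by 1.52 and 2.11 (adjusted p = 9.88e-04 and 1.09e-06) from the low level of 1.64 and 2.39 CPM.

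The 2 genes of the list that fell in ΔIDR1b were ISG15, the ubiquitin-like modifier, and DDX58, which encodes the RNA sensor RIG-I. ISG15 stood at 79.0 and 67.1 CPM in no ARID1A, 76.9 and 70.0 CPM in WT, and 38.5 and 33.2 CPM in ΔIDR1b (ΔIDR1b against no ARID1A, -1.03, adjusted p = 5.85e-08). DDX58 stood at 20.3 and 21.6, 15.03 and 19.0, and 6.87 and 7.43 CPM (-1.55, adjusted p = 1.41e-07). Both falls held under every alternative fit and are larger than the log2 limit of 0.5. ISG15 did not differ between WT and no ARID1A by more than the spread (0.01).

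**Figure D4:**
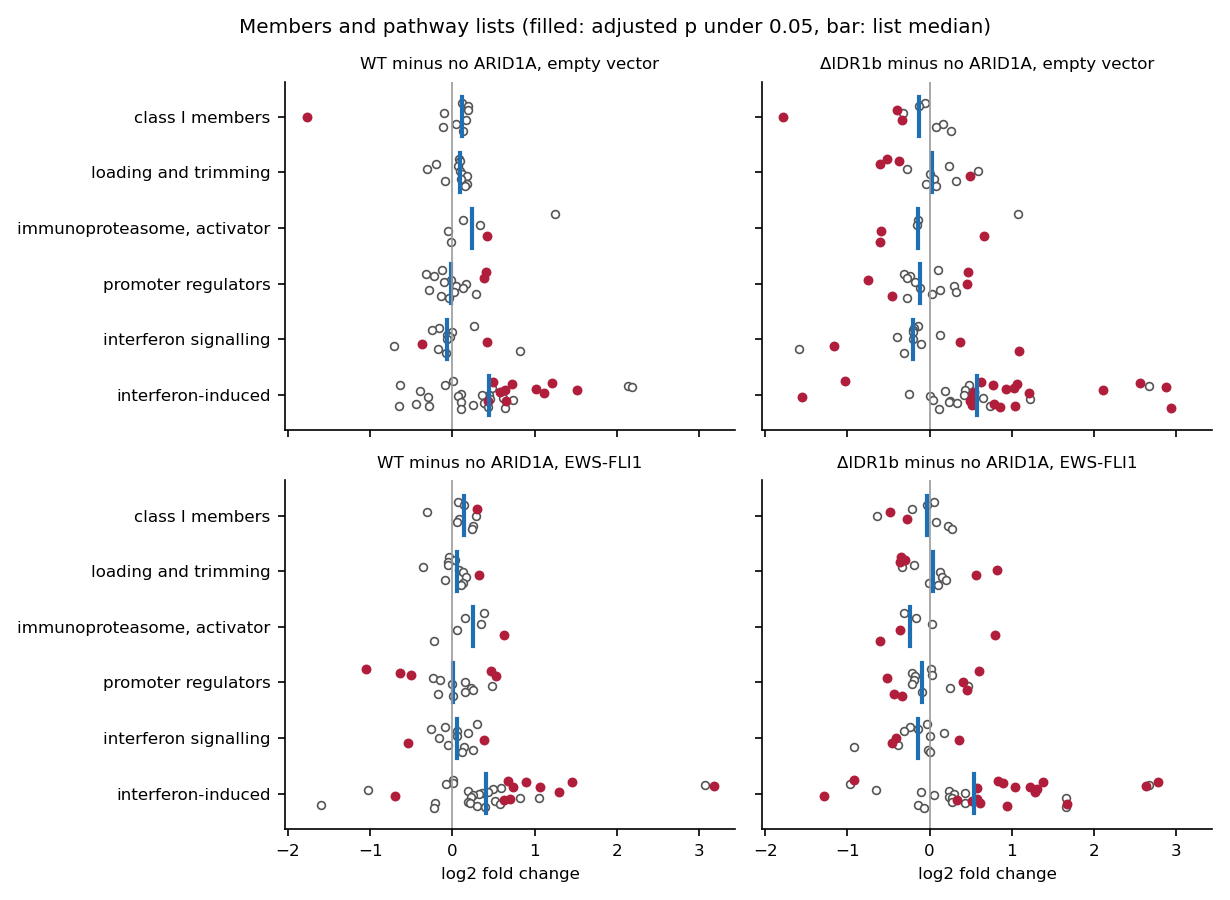
Each point is the log2 fold change of 1 tested gene against no ARID1A, by list, with the list median as a bar and filled points for an adjusted p under 0.05. The interferon-induced genes have medians of 0.44 (WT) and 0.58 (ΔIDR1b) in the empty vector panels and 0.41 and 0.54 in the EWS-FLI1 panels, beside 0.12, -0.13, 0.14 and -0.03 for the class I members.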

How the data were processed

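The deposited values are counts: the authors ran featureCounts 2.0.1, per the file headers, to assign fragments to GENCODE 41 exons by gene name, requiring both ends to be aligned, without a strand option and without counting multi-mapping or multi-overlapping fragments. The submitters' processing notes also name STAR, SAMtools and edgeR, whose versions are not given in the sources used here. The authors applied no normalization to the deposited counts.

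Genes were kept by filterByExpr (minimum count 10, minimum total 15), which left 20377 genes. Library sizes were scaled by TMM, and all 12 libraries entered a quasi-likelihood model that gives each group its mean (edgeR 4.0.16, limma 3.58.1, R 4.3.3). Each of 13 contrasts was tested by a 2-sided F-test with Benjamini-Hochberg adjustment over all tested genes, and a gene was called at an adjusted p under 0.05. The common biological variation was 10.1%, and the procedure was tested on simulated data. Intervals are 95% intervals of the model, and the SE is the size of the log2 fold change divided by the square root of F. No block for the repeat number was used, because the repeat differences were not correlated above 0.1 in every pair of groups. Alternatives were 3 other scalings, no filter, fits of the compared libraries only, replicate blocks, removal of trends with gene length, a log2 limit of 0.5, DESeq2 1.42.0 and leaving out each library. Removal of trends with length and GC content (GC known for 96.9% of genes) and leaving out both WT libraries with EWS-FLI1 were added after seeing the data. Statements that a call of a single gene held or was lost count the alternative fits, and the log2 limit is given separately.

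The members and lists were chosen with earlier results of these data known. All members are described, any called gene of a list could be named, and the genes most alike were found by Pearson's r (prior count 2). PSMB8, PSMB9, PSMB10 and NLRC5 with the empty vector were named for their levels or values although not called. With 2 libraries per group, small differences may be missed. Promoter sequences are RefSeq's (GRCh38.p14); those of HLA-E and HLA-H are not used here. Part of the interferon signalling list is not reported here.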

Additional observations from a re-analysis of the deposited data

How the results depend on the processing

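No member changed sign among its called results under any alternative, and the calls of HLA-E in ΔIDR1b against WT with either vector and against no ARID1A with the empty vector, and of B2M in ΔIDR1b against WT with the empty vector, were kept in each alternative fit, although the HLA-E difference from no ARID1A is smaller than the log2 limit of 0.5. Scaling by total counts moved the median of all genes by 0.103 to 0.168 on the log2 scale in the 4 ΔIDR1b comparisons. The numbers of members called changed as follows. For WT against no ARID1A with the empty vector (1 member), 0 were called with DESeq2, 3 with length and GC trends removed, and 0 to 1 with single libraries left out. For ΔIDR1b against no ARID1A with the empty vector (3), the number was 1 with a log2 limit of 0.5, 5 when only the compared libraries were fitted, and 1 to 3 with single libraries left out. Between ΔIDR1b and WT with the empty vector (3) it was 2 to 3 with single libraries left out. In that comparison the HLA-C call was also lost with upper-quartile or total-count scaling and with the log2 limit. A call of HLA-B was gained under 3 alternatives that removed trends with gene length or with length and GC content. Between WT and no ARID1A with EWS-FLI1 (1), it was 0 with the log2 limit, upper-quartile or total-count scaling or only the compared libraries, 2 with length and GC trends removed, and 0 to 1 with single libraries left out. For ΔIDR1b against no ARID1A with EWS-FLI1 (2), it was 0 with the log2 limit, 1 with total counts and 0 to 3 with single libraries left out. For ΔIDR1b against WT with EWS-FLI1 (2), it was 1 with the log2 limit, total counts or only the compared libraries, and 1 to 3 with single libraries left out. For EWS-FLI1 in no ARID1A and for the interaction of WT with no ARID1A (0 each), it was 1 (HLA-H) without the filter and 0 to 1 with single libraries left out. The cause of these changes was not tested, beyond there being fewer libraries where some were left out.

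The repeat numbers did not pair the libraries by the rule used: the repeat differences of 2 groups correlated across 12290 genes with r from 0.0809 to 0.136 among the empty vector groups, from 0.0997 to 0.343 among the EWS-FLI1 groups and from -0.166 to -0.0064 across vectors. A replicate block over all libraries left every count of members unchanged. A replicate block within each vector, a hint from the data only, gave 4 for ΔIDR1b against no ARID1A with EWS-FLI1, and 1 each for EWS-FLI1 in no ARID1A, for the average effect (HLA-F) and for the interaction of WT with no ARID1A, the last 3 also with length trends removed. That block with length and GC trends removed gave 3 for WT against no ARID1A with either vector, 5 for ΔIDR1b against no ARID1A with the empty vector, 4 for ΔIDR1b against WT with EWS-FLI1 and 1 for the same interaction.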

Other observations

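Other class I-like and class II genes were also called between the ARID1A states. MR1, a class I-like molecule that presents vitamin B metabolites to MAIT cells, stood at 8.10 and 10.6 CPM in no ARID1A, 6.55 and 5.38 CPM in WT, and 17.5 and 14.9 CPM in ΔIDR1b with the empty vector. It was higher in ΔIDR1b than in WT (log2 fold change 1.44, adjusted p = 6.1e-06, edgeR quasi-likelihood test) and than in no ARID1A (0.79, adjusted p = 0.0025), the latter lost without repeat 1 of no ARID1A (adjusted p = 0.0751). With EWS-FLI1 it was also higher in ΔIDR1b than in no ARID1A (1.25, adjusted p = 1.26e-05) and WT (1.76, adjusted p = 3.46e-07). Of the 13 class I-like genes tested, 1 was higher and 1 lower in ΔIDR1b against no ARID1A with the empty vector. Of the 12 class II genes 2 were higher and 1 lower, beside 16.4% of all tested genes higher and 16.8% lower. With EWS-FLI1, 3 class I-like genes were higher and 1 lower, and 2 class II genes were higher and 1 lower. Of all tested genes, 18.1% were higher and 17.9% lower in that comparison.

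HLA-DPA1, a class II chain, fell from 25.2 and 26.7 CPM in no ARID1A to 15.2 and 15.3 CPM in ΔIDR1b (-0.77, adjusted p = 4.13e-04) with the empty vector, and by 0.76 (adjusted p = 4.11e-04) with EWS-FLI1. With the empty vector HLA-DPA1 was also lower in WT than in no ARID1A, by a log2 fold change of -0.70 (adjusted p = 0.00406, lost without repeat 2 of either group), and ΔIDR1b and WT differed by -0.06 (adjusted p = 0.822). CD74, the class II invariant chain, was near the limit of detection, at 0.446 and 0.823 CPM in no ARID1A and 2.34 and 1.86 CPM in ΔIDR1b. SEL1L, a subunit of the ligase complex that removes misfolded proteins from the endoplasmic reticulum, rose from 52.0 and 50.3 to 83.5 and 77.1 CPM in ΔIDR1b with the empty vector (0.65, adjusted p = 5.74e-05), and UBE2J2, a ubiquitin-conjugating enzyme of the same pathway, rose by 0.58 (adjusted p = 2.63e-04).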
